A study of Homo sapiens with 56 samples.

Results

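The MCM genes encode the ring-shaped helicase that opens DNA at replication origins, and proteins that work beside it. Their mRNA levels were followed in Mv4;11 and KG-1, a pair of established human acute myeloid leukaemia cell lines, after PMR-116 or CX-5461, compounds that inhibit RNA polymerase I, the enzyme that makes the large ribosomal RNA precursor. The genes were chosen by name: MCM2, MCM3, MCM4, MCM5, MCM6, MCM7, MCM8, MCM10 and MCMBP, 9 genes of the 59081 symbols present in the count tables of both lines. All 9 were measured in every library and all 9 passed the filter on low counts in both lines.

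In each line 8 groups were sequenced: PMR-116 at 1 µM for 3 h or 12 h, CX-5461 at 1 µM for 3 h or 12 h, and for each of these its own vehicle group, given a buffer of 50 mM citric acid and 50 mM NaH2PO4. There were 3 libraries in each Mv4;11 group and 4 in each KG-1 group, 56 in all, made from total RNA of the cultured lines with a stranded mRNA kit. The labels give all Mv4;11 libraries the batch value 1 and all KG-1 libraries the batch value 2, so the line and the batch cannot be told apart. The labels do not say whether replicates came from separate cultures, and the p-values measure only the spread between these samples, which may be technical. Total counts were 28751758 to 41542156 per library in Mv4;11 and 31010072 to 72707757 in KG-1, and the lowest count of any of the 9 genes in a library was 361 in Mv4;11 and 2033 in KG-1. CPM are counts per 1000000 counts of the library's total, scaled by the trimmed mean of M-values, a scaling left out for the cell type markers. Of 13 leukaemia and myeloid markers, 12 stood above 1 CPM in each line. The 4 T cell markers summed to 0.261 to 0.991 CPM in Mv4;11 and 63.8 to 78.6 CPM in KG-1. The KG-1 sum was mostly CD3D, with a vehicle mean of 66.6 CPM, beside 4.57 for CD3E, 0.491 for CD3G and 0.295 for CD8A. The erythroid marker HBB was at 0 in both lines, LUM in Mv4;11 and EPCAM in KG-1. The 3 endothelial markers summed to 48.9 to 76.0 CPM in the Mv4;11 vehicle libraries and 51.6 to 127 CPM in the treated ones. In KG-1 they summed to 158 to 189 CPM in vehicle and 156 to 181 CPM in treated libraries. PECAM1 made up most of each sum, with vehicle means of 64.8 CPM in Mv4;11 and 170 CPM in KG-1. CDH5 and VWF were at 0.0799 and 0.184 CPM in Mv4;11 vehicle and 0.00654 and 1.58 CPM in KG-1 vehicle. The part of these markers in the results was not tested. One library, replicate 3 of the Mv4;11 vehicle for PMR-116 at 12 h, stood apart from its group. It had 2607 CPM of MT-RNR1, against 336 and 365 CPM in replicates 1 and 2. MALAT1 stood at 1126 CPM against 63.3 and 59.4 CPM, and the cause was not tested. Values without that library are given for the PMR-116 effect at 12 h and its differences over time and between compounds and lines. They are also given for the gene lists and the change of the vehicles over time.

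MCM2 to MCM7 form a hexamer that is loaded onto origins in the G1 phase by the origin recognition complex, CDC6 and CDT1, a step called licensing. In S phase the loaded ring is joined by CDC45 and the GINS complex and becomes the moving helicase, and MCM10 takes part in that activation. MCM8 works with MCM9 in a separate helicase complex that serves homologous recombination, and MCMBP binds MCM subunits outside chromatin and takes part in their assembly. MCM genes are known targets of the E2F transcription factors, which drive genes needed for S phase.

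The MCM genes moved together in Mv4;11 after 12 h of either compound. Stretches of their promoters that hold E2F-type sequences are shown first, and the part of these sequences in the changes was not tested. RefSeq windows of 250 bases before to 50 bases after the start (GRCh38.p14) were at hand for 7 of the 9 genes, all but MCM4 and MCM5. The letters searched, on both strands, were TTTCCCGC, TTTCGCGC, TTTGCCGC and TTTGGCGC, and matches are in capitals. Positions count from the start, with no base 0.
MCM6: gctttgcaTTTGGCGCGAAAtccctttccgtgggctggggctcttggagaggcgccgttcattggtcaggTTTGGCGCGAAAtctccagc
MCM2: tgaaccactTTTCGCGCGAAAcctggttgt
MCM3: agttcggaagtTTTCGCGCcggggtggagt
MCM7: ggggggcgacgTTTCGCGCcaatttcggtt
MCMBP: ggcggcggctaTTTCCCGCcattgtgcgaa
MCM8: ggatcactgaaGCGCCAAAaaagaatttag
The MCM6 stretch, chr2:135876514-135876603 on the minus strand, ran from -160 to -71 and overlapped no GENCODE exon. It holds the same 12 letters at -152 and again at -90, each made of a pair of overlapping matches on opposite strands. The MCM2 stretch, chr3:127598404-127598433 on the plus strand, has such an overlapping pair from 3 to 14 and overlaps the UTR of 2 GENCODE transcripts. In MCM3 (chr6:52284728-52284757, minus strand) the match ran from -4 to 4, in an exon of 5 GENCODE transcripts that is coding in 4 of them. MCM7 (chr7:100101388-100101417, minus strand) and MCMBP (chr10:119872834-119872863, minus strand) had their match from -9 to -2. The printed MCM7 stretch overlaps exons of 4 transcripts, as UTR in 3 of them, and the MCMBP stretch overlaps the UTR of 1 transcript. In MCM8 (chr20:5950667-5950696, plus strand) the match lay from 27 to 34, on the opposite strand, in a stretch that overlaps the UTR of 4 transcripts. Further matches lay at -174 in MCM3 and at -187 in MCM7. In all, 6 of the 7 genes had a match (85.7%), against 3.99% of the 27305 genes with windows of that length. CCAAT was found in 5 of the 7 (39.7% of all genes) and CACGTG in 3 of the 7 (8.77%), and in MCM7 a CCAAT shares 1 base with the E2F-type match. The traits were not particular to the MCM genes. Of the licensing, E2F and mitosis lists described below, 47.5%, 29.2% and 11.1% of genes with windows had an E2F-type match. CCAAT was found in 52.5%, 45.8% and 83.3% of them, and CACGTG in 10%, 25% and 22.2%. The MCM10 window held none of the E2F-type letters searched. A match is a description of the letters and shows no binding.

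By GENCODE annotation of GRCh38, MCM2 lies on chromosome 3 (127598223 to 127622436, plus strand), MCM3 on chromosome 6 (52264009 to 52284881, minus), MCM4 on chromosome 8, MCM5 on chromosome 22 (35400063 to 35425430, plus), MCM6 on chromosome 2 (135839626 to 135876426, minus) and MCM7 on chromosome 7 (100092728 to 100101940, minus). MCM8 lies on chromosome 20 (5950652 to 5998977, plus), and MCM10 (13161554 to 13211104, plus) and MCMBP (119829404 to 119892556, minus) both lie on chromosome 10. Exons of MCM2 overlap those of TPRA1 by 45 bases and of the antisense gene AC023593.1 by 1113 bases, and exons of MCM7 overlap those of AP4M1 by 392 bases, in each case on the opposite strand. The strand setting of the counting is not given in the sources used here, so reads of these stretches may not be assigned to 1 gene with certainty. No stretch of 31 bases was shared between any of the 9 genes. Some were shared with genes outside the 9: 4.32% of those of MCM4, 3.09% of MCM8 and 1.69% of MCMBP. In the other members the share was 0% to 0.617%.

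In vehicle-treated cells the subunits of the hexamer were abundant and the other members were not. Per kilobase of the longest transcript, MCM4 was highest in the vehicle libraries of both lines, at 215 ± 14.8 CPM per kb in Mv4;11 (mean ± SD, n = 12) and 360 ± 30.2 in KG-1 (n = 16). In Mv4;11 MCM4 was followed by MCM7 (191 ± 11.4), MCM2 (127 ± 5.56), MCM3 (110 ± 6.47), MCM6 (108 ± 7.69) and MCM5 (76.8 ± 5.14). MCM3 and MCM6 did not differ beyond their spread. The order depends on the length used, which need not be that of the transcripts present. In CPM the Mv4;11 vehicle medians of MCM3 and MCM5 were 359 and 361. In KG-1 the order after MCM4 was MCM3 (281 ± 12.1), MCM7 (246 ± 18.4), MCM2 (190 ± 9.23), MCM5 (127 ± 7.18) and MCM6 (125 ± 9.05), with the last 2 not apart beyond their spread. MCM10 (11.6 ± 1.49 in Mv4;11 and 22.2 ± 2.98 in KG-1) and MCM8 (7.19 ± 0.583 and 9.49 ± 0.881) were the lowest in both lines. MCMBP stood at 51.5 ± 5.28 CPM per kb in Mv4;11 and 23.2 ± 2.19 in KG-1, where it was not apart from MCM10 beyond the spread. It was the 1 member with the higher level in Mv4;11, as the plots of each line show. The lines were scaled separately and differ in batch, so levels are set beside each other across lines without a test.

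The vehicle groups of the compounds were not called apart. Between the vehicle for PMR-116 and the vehicle for CX-5461 in the same line and time, edgeR's quasi-likelihood test called 0 of the 9 members in any of the 4 comparisons (0% of all genes), and 0 had an unadjusted p under 0.05 or were called by DESeq2. Over all genes 0 were called there by edgeR, with 479 to 858 genes at an unadjusted p under 0.05 and 0 to 2 called by DESeq2. Time in vehicle moved some members slightly. From 3 h to 12 h, MCMBP (-0.23 ± 0.05 on the log2 scale, adjusted p = 0.00506) and MCM7 (-0.13 ± 0.04, adjusted p = 0.0186) fell in Mv4;11, 2 of 9 against 7.42% of all genes. Without the library that stood apart MCMBP was still lower (-0.19, adjusted p = 0.0168), MCM7 was not called (-0.11, adjusted p = 0.051) and MCM2 was called higher (0.10, adjusted p = 0.0383), as it was with library totals. The MCM7 call was also lost without replicate 2 of the 3 h vehicle for PMR-116 or for CX-5461 (adjusted p = 0.0527 and 0.0558), and without the filter on low counts MCM4 and MCM10 were called lower too (adjusted p = 0.0331 and 0.0293). In KG-1 7 members fell, with log2 changes of -0.28 to -0.11, against 15.4% of all genes. MCM2 and MCM3 were the KG-1 members not called.

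After 12 h of PMR-116 in Mv4;11, every MCM gene had fallen. All 9 members were called lower by edgeR at an adjusted p under 0.05, in a comparison where 22.5% of 20495 tested genes were called lower, and in all 9 every treated library was below every vehicle library (50.7% of all genes had no overlap, in either direction). The hexamer subunits fell to between 16.3% and 37.2% of vehicle, and their summed level dropped from 2984 ± 122 CPM to 728 ± 39.2 CPM (mean ± SD, n = 3). In bulk libraries, fewer cells with these mRNAs and less of them in each cell cannot be told apart.

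Among the subunits the falls differed in size. MCM4, which with MCM6 and MCM7 has helicase activity in the test tube, stood at 860, 859 and 843 CPM in the vehicle libraries and at 157, 132 and 128 CPM with PMR-116. The treated libraries all lay far below the lowest vehicle library, a 6.14-fold fall (log2 fold change -2.62 ± 0.10 SE, adjusted p = 4.7e-15). MCM6 went from 409, 399 and 349 CPM to 75.3, 65.7 and 61.5 CPM, a 5.70-fold fall (-2.51 ± 0.08, adjusted p = 2.25e-16). MCM2, whose amino-terminal tail also binds histones, went from 481, 493 and 448 CPM to 112, 105 and 111 CPM, a 4.34-fold fall with the smallest adjusted p of the 9 (-2.12 ± 0.05, adjusted p = 2.67e-19). In each of these 3 subunits the treated libraries lay close together and far below the vehicle libraries. MCM5, which forms the gate of the ring with MCM2, stood at 361, 369 and 357 CPM in vehicle and at 102, 89.3 and 87.1 CPM with the compound, a 3.90-fold fall (-1.96 ± 0.08, adjusted p = 4.7e-15). MCM7, the subunit that is ubiquitylated when the helicase is taken off DNA, went from 580, 572 and 523 CPM to 195, 190 and 183 CPM, a 2.95-fold fall (-1.56 ± 0.05, adjusted p = 3.82e-16). In neither gene did the groups overlap. MCM3 fell least of the subunits, from 360, 365 and 323 CPM to 130, 133 and 127 CPM, 2.69-fold (-1.43 ± 0.07, adjusted p = 2.27e-13). The 95% intervals of the log2 fold change of MCM3 (-1.58 to -1.27) and MCM4 (-2.84 to -2.40) did not overlap.

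The members outside the hexamer spread more widely. MCM10 fell by an amount within the range of the subunits, from 54.8, 54.3 and 49.2 CPM to 11.6, 12.2 and 10.2 CPM, 4.64-fold (log2 fold change -2.21 ± 0.12, adjusted p = 6.18e-13). MCM8 went from 57.8, 50.2 and 52.9 CPM to 21.9, 24.7 and 23.4 CPM, a 2.30-fold fall (-1.20 ± 0.09, adjusted p = 2.17e-10). MCMBP changed least, from 194, 210 and 174 CPM to 131, 127 and 125 CPM, 1.51-fold (-0.59 ± 0.07, adjusted p = 4.28e-07). Even there the highest treated library lay below the lowest vehicle library. The median log2 fold change of the 9 was -1.96, beside 0.00929 for all genes tested. Scaling by library totals in place of the trimmed mean of M-values moved the median of all genes to 0.182, and the 9 falls were then relative to that shift. Replicate 3 of this vehicle group was the lowest vehicle library for 8 of these 9 genes and is the library that stood apart. Without it the log2 fold changes were between -2.63 (MCM4) and -0.66 (MCMBP), and all 9 stayed called.

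**Figure D1:**
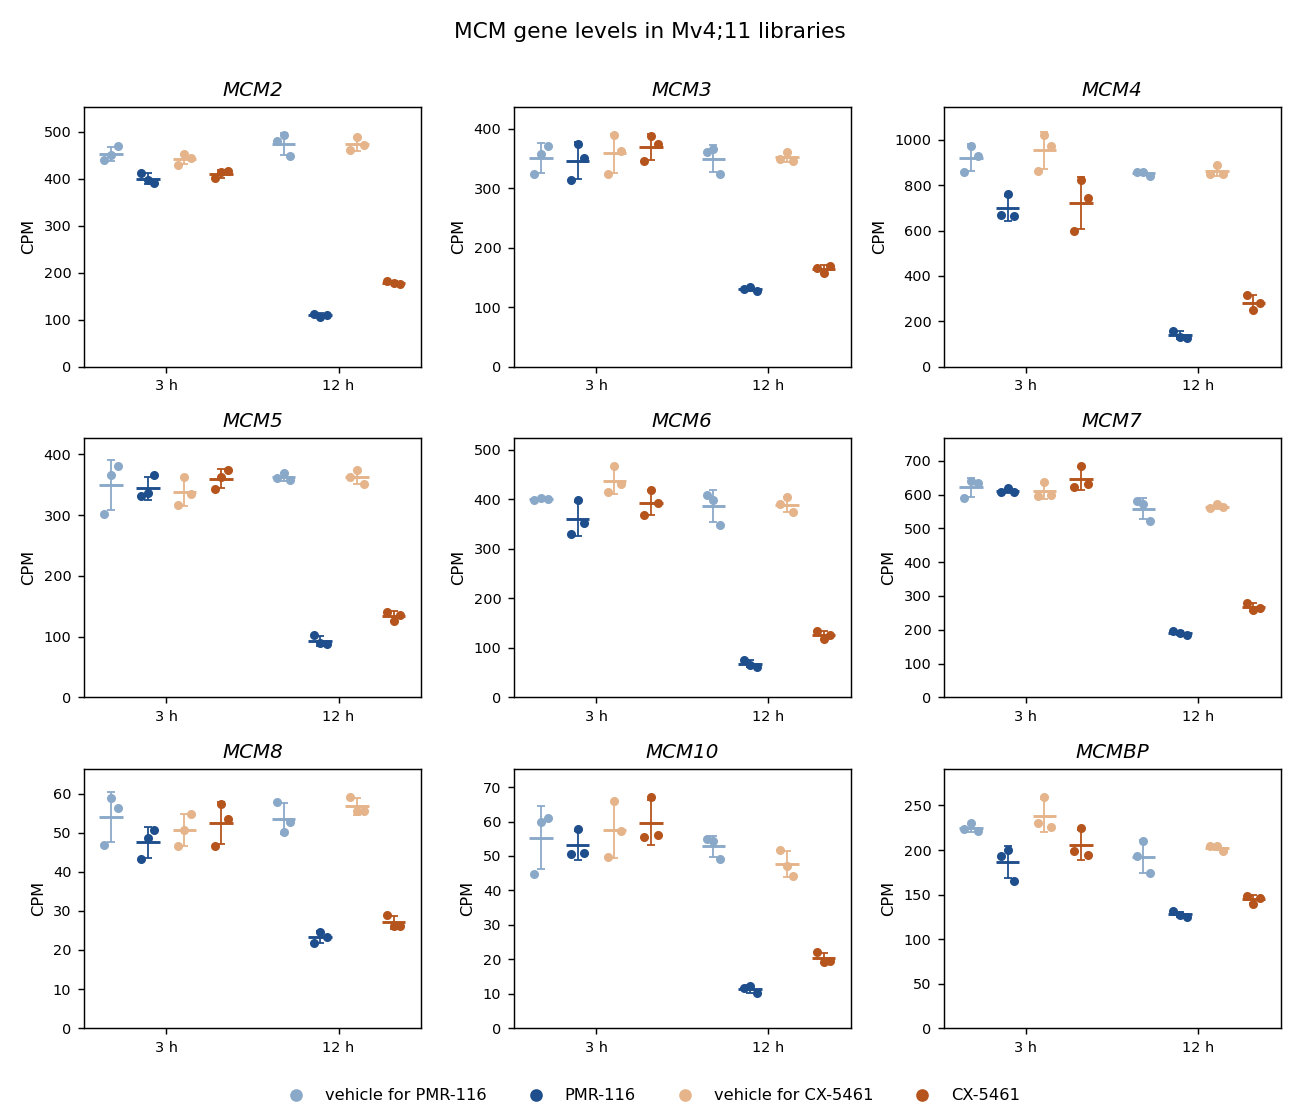
Level of each MCM gene in Mv4;11, in CPM on a linear axis from 0, for each library (points) with the mean (wide line) and SD (bar) of each group, by compound, vehicle and time. At 12 h all treated libraries lie below all vehicle libraries in each of the 9 panels, and for MCM4 the PMR-116 libraries sit between 128 and 157 CPM against 843 to 860 CPM in their vehicle.

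CX-5461 gave the same direction at 12 h in Mv4;11 with smaller changes. All 9 members were called lower, where 16.5% of all genes were, and again the treated and vehicle libraries did not overlap in any of the 9 (every treated library lower in 22.6% of all genes). The summed level of the hexamer subunits was 1150 ± 66.8 CPM against 3004 ± 71.8 CPM in vehicle (n = 3). MCM4 stood at 316, 250 and 278 CPM against 850, 889 and 848 CPM in vehicle, a 3.06-fold fall (log2 fold change -1.62 ± 0.10, adjusted p = 3.1e-11). MCM6 stood at 135, 117 and 127 CPM against 390, 404 and 374 CPM, a 3.08-fold fall (-1.62 ± 0.08, adjusted p = 9.24e-13). MCM2 stood at 182, 177 and 175 CPM against 461, 490 and 472 CPM, a 2.66-fold fall (-1.41 ± 0.05, adjusted p = 1.55e-15). MCM5 (-1.44) was close to these 3 in size. The falls of MCM3 (-1.10), MCM7 (-1.08), MCM8 (-1.07) and MCM10 (-1.23) were close to each other. MCMBP was again the least changed, at 148, 140 and 147 CPM against 204, 204 and 199 CPM (-0.48 ± 0.07, adjusted p = 1.51e-05). The median of the 9 was -1.23, beside 0.0356 for all genes, and library totals moved the latter to 0.118.

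At 3 h in Mv4;11 most MCM genes were near their vehicle level. PMR-116 lowered 3 of the 9 (13.1% of all genes were called lower) and CX-5461 lowered 1 (6.61%), and neither raised any (11.0% and 5.05% of all genes were called higher). MCM4 was the member called with both compounds. It stood at 669, 764 and 662 CPM with PMR-116 against 857, 975 and 930 CPM in vehicle, without overlap (log2 fold change -0.40 ± 0.10, adjusted p = 0.00413). With CX-5461 it stood at 599, 823 and 745 CPM against 864, 1022 and 976 CPM, also without overlap (-0.40 ± 0.10, adjusted p = 0.00782). The CX-5461 call rested on the lowest of its libraries, for without replicate 1 the change was -0.28 (adjusted p = 0.0646). MCMBP, the least changed at 12 h, was among the first to be called with PMR-116, at 194, 200 and 166 CPM against 223, 230 and 221 CPM (-0.27 ± 0.07, adjusted p = 0.00825). Without PMR-116 replicate 3, the lowest library, it was -0.19 (adjusted p = 0.0804). With CX-5461 MCMBP stood at 198, 225 and 194 CPM against 230, 260 and 226 CPM, 225 being the highest treated and 226 the lowest vehicle value, and was not called (-0.21 ± 0.07, adjusted p = 0.0611). MCM2 was lowered by PMR-116, at 412, 397 and 391 CPM against 441, 449 and 469 CPM (-0.18 ± 0.05, adjusted p = 0.00693), and this call was lost without the filter on low counts (adjusted p = 0.217) and in a fit of the 2 groups alone (adjusted p = 0.0538). The other 6 members had 3 h log2 fold changes of -0.18 to -0.02 with PMR-116 and were not called, and with CX-5461 the 7 members other than MCM4 and MCMBP had changes of -0.15 to 0.09 and were not called. Treated libraries lay below all vehicle libraries in 4 members with PMR-116 (18.1% of all genes) and in 3 with CX-5461 (14.7%). MCM6 was the uncalled member of the former (-0.15 ± 0.08, adjusted p = 0.169). For PMR-116, MCM6 was called without replicate 2 of the compound (-0.23, adjusted p = 0.0497) and MCM8 without vehicle replicate 1 (-0.28, adjusted p = 0.0334), and with CX-5461 MCMBP was called without CX-5461 replicate 2 (-0.28, adjusted p = 0.0237) and by DESeq2 (adjusted p = 0.0385).

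**Figure D2:**
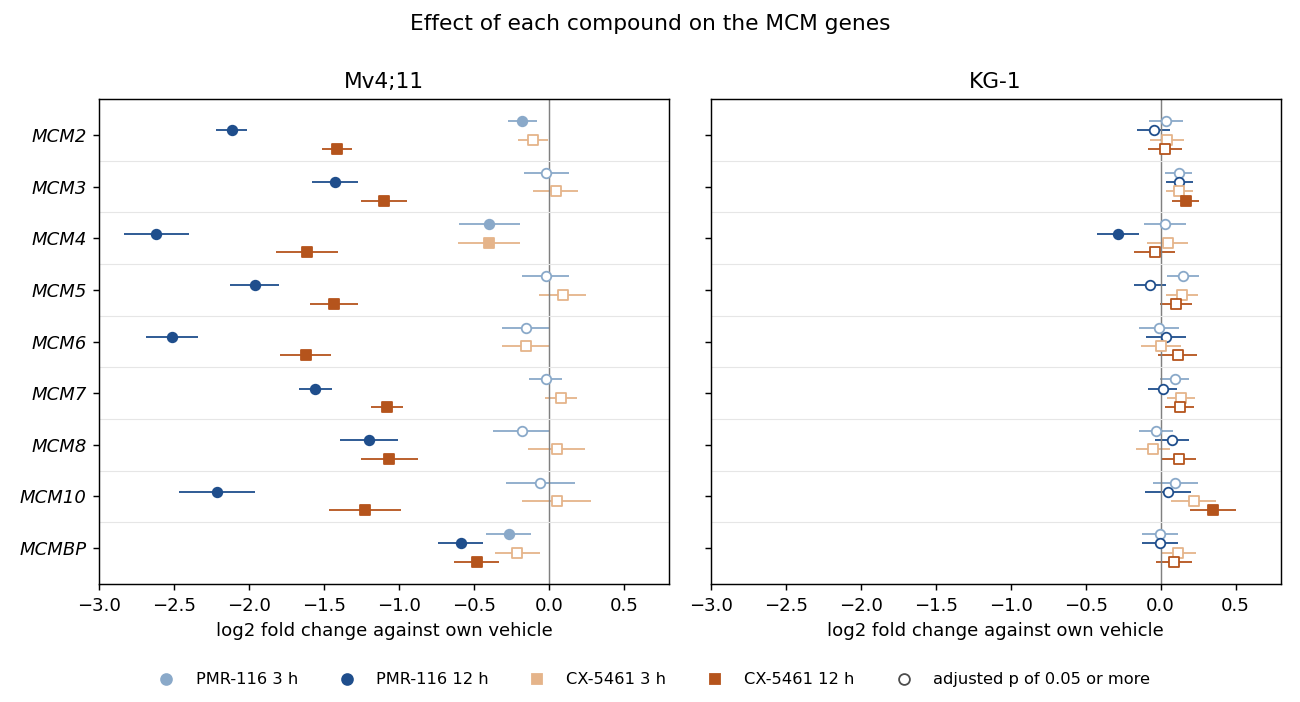
Log2 fold change of each MCM gene against its own vehicle (x axis) for each compound, time and line, with 95% intervals as bars and filled symbols for changes called at an adjusted p under 0.05. In Mv4;11 the 12 h values reach from -0.48 to -2.62 and all are filled, while at 3 h 4 of 18 are filled and in KG-1 all values lie between -0.29 and 0.35.

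The change from 3 h to 12 h was tested as a difference of the effects. In Mv4;11 it was lower at 12 h for all 9 members with PMR-116 (15.4% of all genes) and for 8 of 9 with CX-5461 (9.15%). The largest differences with PMR-116 were those of MCM6 (-2.36 ± 0.11 on the log2 scale) and MCM4 (-2.22 ± 0.14), and the smallest was that of MCMBP (-0.32 ± 0.10, adjusted p = 0.0226). Without the vehicle library that stood apart all 9 differences were called, from -2.42 in MCM6 to -0.39 in MCMBP. The MCMBP call was lost without PMR-116 3 h replicate 2, PMR-116 12 h replicate 3 or 12 h vehicle replicate 2 (adjusted p = 0.0743, 0.0503 and 0.0785), with library totals (adjusted p = 0.137) and without the filter on low counts (adjusted p = 0.0566). With CX-5461 they ran from -1.53 ± 0.11 in MCM5 to -1.11 ± 0.13 in MCM8, and MCMBP was not called (-0.27 ± 0.10, adjusted p = 0.077, 95% interval -0.48 to -0.06), except without 3 h vehicle replicate 2 (-0.34, adjusted p = 0.0292) or by DESeq2 (adjusted p = 0.0383).

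At the same dose of 1 µM and the same time, PMR-116 lowered most MCM genes further than CX-5461 did at 12 h in Mv4;11. Whether 1 µM of each compound inhibits RNA polymerase I equally was not tested. Over all genes, 8859 were called in either direction with PMR-116 at 12 h in Mv4;11 and 6430 with CX-5461. Each of the 9 genes was compared between the compounds in 4 settings of line and time, with p-values adjusted over all genes of a setting. At 12 h in Mv4;11, 6 of the 9 were called as fallen further with PMR-116, beside 3.84% of all genes. MCM4 differed most (-1.0 ± 0.14 on the log2 scale, adjusted p = 0.000154), followed by MCM10 (-0.99 ± 0.17, adjusted p = 0.000885), MCM6 (-0.89 ± 0.11, adjusted p = 5.93e-05) and MCM2 (-0.70 ± 0.07, adjusted p = 1.46e-06). MCM5 (-0.53 ± 0.11) and MCM7 (-0.48 ± 0.07) differed less. The other members were not called apart: MCM3 (-0.33, 95% interval -0.54 to -0.11, adjusted p = 0.068), MCM8 (-0.14, interval -0.41 to 0.13, adjusted p = 0.661) and MCMBP (-0.11, interval -0.32 to 0.11, adjusted p = 0.667). The intervals of MCM8 and MCMBP leave room for a further fall with PMR-116 down to -0.41 and -0.32. MCM3 was called by DESeq2 (adjusted p = 0.0289) and without the vehicle library that stood apart (adjusted p = 0.0368), and with library totals its difference was -0.23 (adjusted p = 0.166). At 3 h in Mv4;11 edgeR called 0 of 9 (1.34% of all genes in either direction), with 0 at an unadjusted p under 0.05 and 0 by DESeq2, and the differences lay between -0.23 and 0.00. For MCM4 at 3 h the interval was -0.28 to 0.29.

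**Figure D3:**
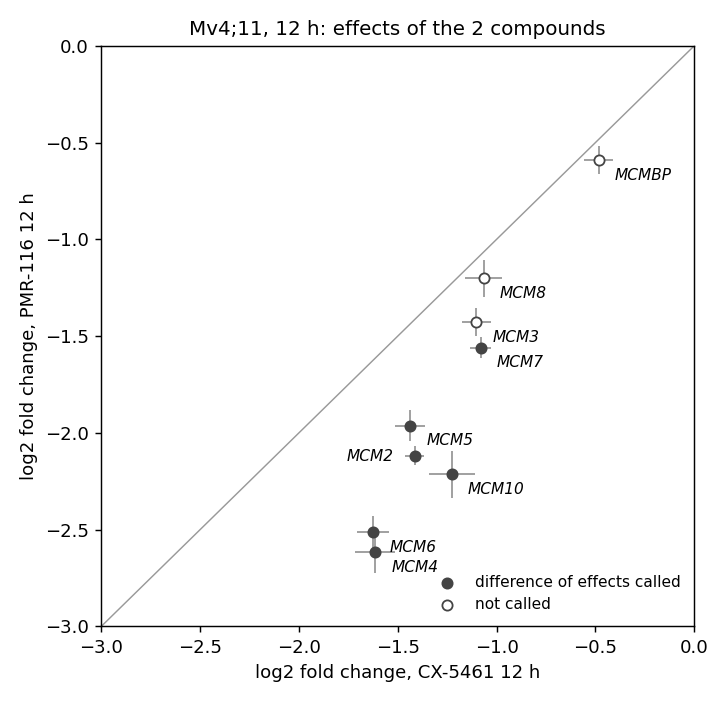
Log2 fold change of each MCM gene at 12 h in Mv4;11 with CX-5461 (x axis) and PMR-116 (y axis), with standard errors as bars and the line of equal change. The 6 filled genes were called as lower with PMR-116, MCM4 lies farthest from the line, and MCM8 and MCMBP lie nearest to it.

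In KG-1 the MCM genes stayed near their vehicle levels. With PMR-116 at 3 h edgeR called 0 of 9 (7.33% of all genes in either direction), with 2 higher at an unadjusted p under 0.05 and 0 by DESeq2. With CX-5461 at 3 h edgeR also called 0 of 9 (3.44% in either direction). There 5 were higher at an unadjusted p under 0.05, and DESeq2 called 2 higher, MCM7 and MCM10. The shares of all genes are those of edgeR's adjusted calls. None is given for an unadjusted p or for DESeq2, so those member counts stand without a background. The 18 log2 fold changes at 3 h lay between -0.05 and 0.22. All PMR-116 libraries lay above all vehicle libraries for MCM3, MCM5 and MCM7 (7.07% of all genes). All CX-5461 libraries did for MCM3, MCM7, MCM10 and MCMBP (5.39%). None of these was called by edgeR in the main fit. A fit with a replicate block called some members higher at 3 h with each compound, as given with the alternatives below.

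PMR-116 at 12 h lowered 1 member in KG-1, MCM4, where 4.74% of all genes were called lower. MCM4 stood at 1322, 1175, 1123 and 1181 CPM against 1614, 1389, 1394 and 1456 CPM in vehicle. The highest treated library lay below the lowest vehicle library, for this 1 member of the 9 (6.48% of all genes; log2 fold change -0.29 ± 0.07, adjusted p = 0.00645, n = 4), and MCM4 was still called when each of the 8 libraries was left out in turn (log2 fold changes of -0.34 to -0.24). MCM2 in the same libraries stood at 722, 651, 614 and 643 CPM against 720, 666, 633 and 694 CPM and did not differ beyond the spread (-0.05 ± 0.05, adjusted p = 0.706). For the other 7 members the changes were between -0.07 (MCM5) and 0.12 (MCM3), and MCM3 was called higher without PMR-116 replicate 3 (0.16, adjusted p = 0.0219) and with library totals (adjusted p = 0.0202). The summed level of the hexamer subunits was 4535 ± 278 CPM with PMR-116 and 4747 ± 269 CPM in vehicle.

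CX-5461 at 12 h raised 2 members in KG-1, where 1.36% of all genes were called higher. MCM10 stood at 128, 116, 101 and 111 CPM against 102, 80.6, 86.9 and 88.7 CPM (log2 fold change 0.35 ± 0.07, adjusted p = 0.00701), with the lowest treated value just under the highest vehicle value. In a fit of these 2 groups alone the MCM10 call was lost (adjusted p = 0.101). MCM3 stood at 1034, 983, 941 and 973 CPM against 917, 847, 846 and 887 CPM and was the 1 member with every treated library higher (0.17 ± 0.04, adjusted p = 0.0335), beside 3.93% of all genes. The MCM3 call was lost without CX-5461 replicate 1, 2 or 4 or vehicle replicate 2, 3 or 4 (adjusted p = 0.0586 to 0.14), without the filter on low counts (adjusted p = 0.142) and in the fit of the 2 groups alone (adjusted p = 0.174). MCM7 was called as well without vehicle replicate 1 (0.17, adjusted p = 0.0459) and with library totals (adjusted p = 0.038). MCM4 stood at 1483, 1342, 1360 and 1234 CPM against 1597, 1324, 1354 and 1296 CPM and overlapped (-0.04 ± 0.07, adjusted p = 0.885). Between the compounds in KG-1 edgeR called 0 of 9 at 3 h (0.0107% of all genes in either direction) and 0 of 9 at 12 h (0.0483%). At 12 h 3 members had an unadjusted p under 0.05, all lower with PMR-116, namely MCM4 (-0.25, interval -0.44 to -0.05), MCM5 (-0.18, interval -0.33 to -0.03) and MCM10 (-0.30, interval -0.52 to -0.09), at 3 h 0 did, and DESeq2 called 0 at either time. Between 3 h and 12 h edgeR called 0 of 9 for PMR-116 (1.69% of all genes in either direction), with 2 lower at an unadjusted p under 0.05. DESeq2 called 1 there, MCM4, which edgeR also called without PMR-116 12 h replicate 1 (adjusted p = 0.043). For CX-5461 edgeR called 0 of 9 (0.263%), with 1 higher at an unadjusted p under 0.05 and 0 by DESeq2. Here too the shares of all genes are those of edgeR's adjusted calls only.

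**Figure D4:**
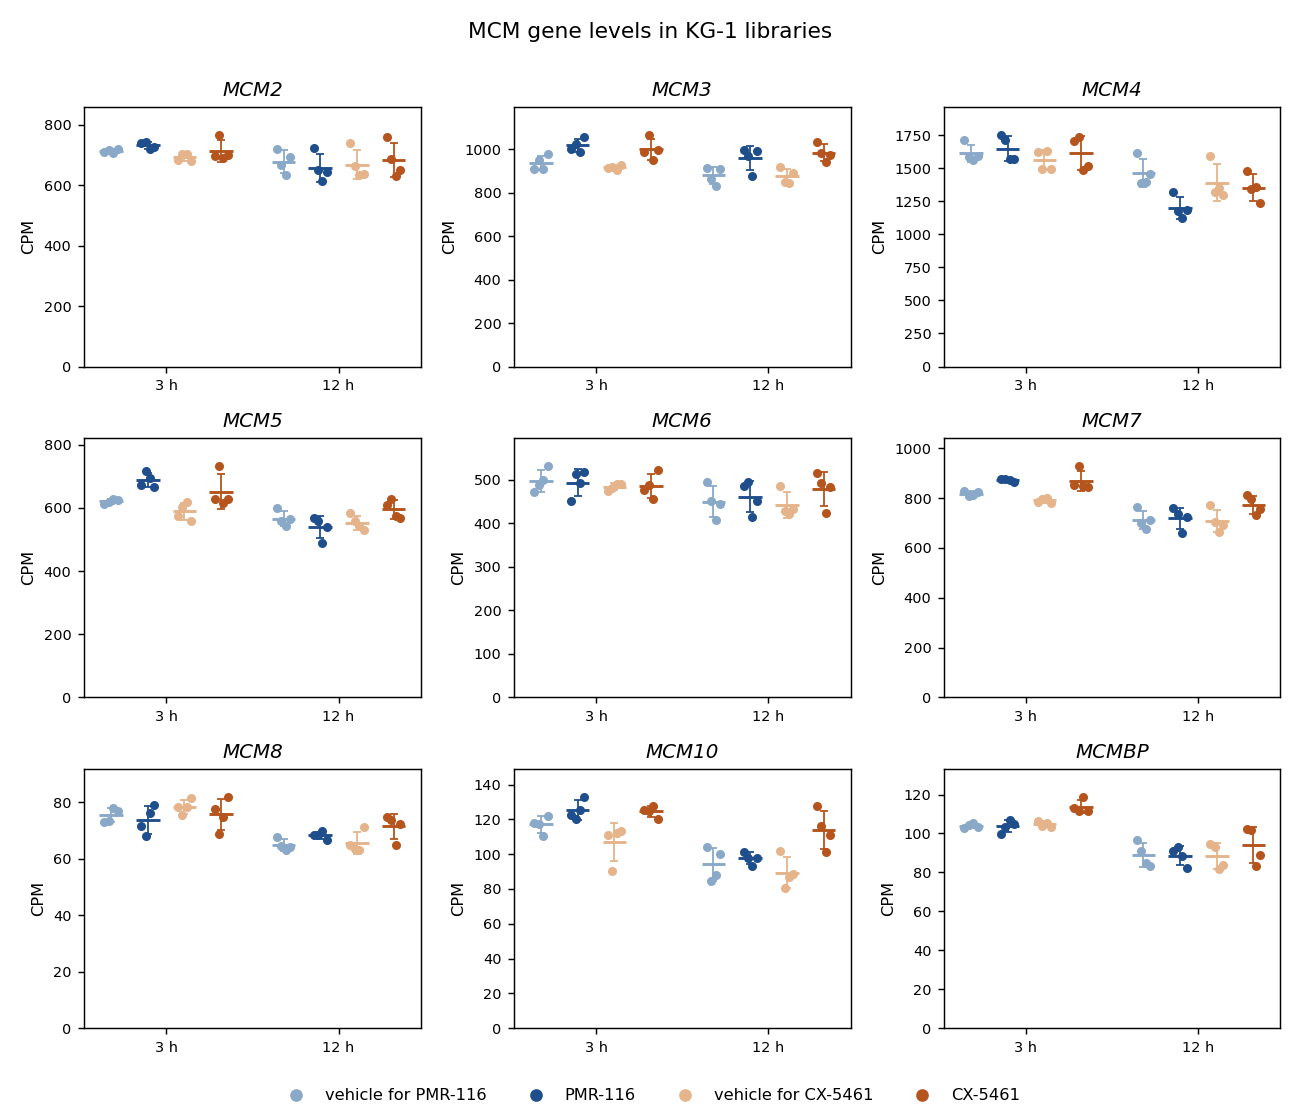
Level of each MCM gene in KG-1, in CPM on a linear axis from 0, for each library (points) with the mean (wide line) and SD (bar) of each group, by compound, vehicle and time. Treated and vehicle libraries overlap in most comparisons, and for MCM4 at 12 h the PMR-116 libraries (1123 to 1322 CPM) lie below their vehicle libraries (1389 to 1614 CPM).

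The effect in Mv4;11 was set against that in KG-1 in a joint fit of both lines, in which line and batch cannot be told apart. At 12 h all 9 members had fallen further in Mv4;11 with PMR-116 (13.2% of all genes) and with CX-5461 (9.04%). The difference for PMR-116 was largest in MCM6 (-2.49 ± 0.11 on the log2 scale) and MCM4 (-2.27 ± 0.12) and smallest in MCMBP (-0.53 ± 0.10, adjusted p = 1.85e-05). Without the vehicle library that stood apart the 9 differences for PMR-116 ran from -2.65 in MCM6 to -0.68 in MCMBP and all were called. For CX-5461 it ran from -1.71 ± 0.11 in MCM6 to -0.54 ± 0.10 in MCMBP (adjusted p = 2.54e-05). At 3 h only MCM4 was called, 1 of 9 and lower with PMR-116 (6.94% of all genes in either direction) and with CX-5461 (3.07%). Its difference was -0.38 ± 0.12 (adjusted p = 0.0448) and -0.41 ± 0.12 (adjusted p = 0.0431). Both 3 h calls were close to the threshold. With PMR-116 the call was lost without Mv4;11 PMR-116 replicate 1 or 3 or Mv4;11 vehicle replicate 2 or 3, and with CX-5461 without Mv4;11 CX-5461 replicate 1 or 3, Mv4;11 vehicle replicate 2 or 3, KG-1 CX-5461 replicate 1 or 2, or KG-1 vehicle replicate 2 or 4. For these MCM4 values the adjusted p was 0.0597 to 0.134 with PMR-116 and 0.0503 to 0.234 with CX-5461. MCM2 was called with PMR-116 without KG-1 PMR-116 replicate 3 (adjusted p = 0.0412) or KG-1 vehicle replicate 4 (adjusted p = 0.048), and by DESeq2 (adjusted p = 0.0496). MCMBP, not called with CX-5461 (-0.30 ± 0.10, adjusted p = 0.0799), was called in 6 of the 14 fits that left out 1 library, namely KG-1 CX-5461 replicate 1, 2 or 4, KG-1 vehicle replicate 1 or 3, or Mv4;11 CX-5461 replicate 2, and also by DESeq2 (adjusted p = 0.0146) and with library totals (adjusted p = 0.0301).

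Genes that load or join the helicase fell with it in Mv4;11. Of 46 licensing, helicase partner and fork genes tested there, 42 were called lower and 2 higher after 12 h of PMR-116 (median log2 fold change -1.13), and 42 lower and 1 higher after 12 h of CX-5461 (median -0.80). Of all genes, 22.5% were called lower and 20.7% higher with PMR-116, and 16.5% and 14.8% with CX-5461. Without the vehicle library that stood apart the PMR-116 counts of this list were again 42 and 2 (median -1.15). The largest falls were those of the GINS subunit GINS2 (-2.33 ± 0.11 with PMR-116 and -1.56 ± 0.10 with CX-5461) and the MCM loader CDC6 (-2.29 ± 0.09 and -1.43 ± 0.09). Named for their place in the same helicase and not by the rule of size, CDC45 fell by 2.22 with PMR-116, and GINS1 (-1.16), GINS3 (-1.48) and GINS4 (-1.18) fell as well. The list also holds members that rose at 12 h: MCMDC2, a meiosis gene related to the MCM family (0.66 ± 0.13 with PMR-116 and 0.47 ± 0.13 with CX-5461), and the origin recognition subunit ORC4 (0.44 ± 0.11 with PMR-116). At 3 h the list was mixed, with 8 lower and 4 higher for PMR-116 and 6 lower and 5 higher for CX-5461, beside 13.1% lower and 11.0% higher, and 6.61% and 5.05%, of all genes. At that time the MCM loader CDT1 (-0.76 ± 0.13) and the fork protection gene TIPIN (-0.91 ± 0.10) had fallen with PMR-116, while the sliding clamp PCNA had risen (0.44 ± 0.06 with PMR-116 and 0.71 ± 0.06 with CX-5461). In KG-1 the calls among 45 tested genes were 0 lower and 2 higher, and 2 lower and 6 higher, for PMR-116 at 3 h and 12 h, and 0 lower with 3 and 8 higher for CX-5461. The shares of all genes there were 3.71% lower and 3.61% higher, and 4.74% and 4.73%, for PMR-116, and 1.58% and 1.85%, and 1.18% and 1.36%, for CX-5461.

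The partner genes of MCM8 were called at 3 h where MCM8 was not, and their values over both times and that of MCM9 were chosen after they were seen. HROB, which recruits the MCM8 and MCM9 helicase, rose at 3 h (0.52 ± 0.13 with PMR-116, adjusted p = 0.00427, and 0.51 ± 0.13 with CX-5461, adjusted p = 0.011) and was lower than vehicle at 12 h (-0.58 ± 0.13 and -0.40 ± 0.13). MCM9 fell by 0.55 on the log2 scale at 3 h and by 0.51 at 12 h with PMR-116 (adjusted p = 0.00132 at 3 h), was not called at 3 h with CX-5461 (-0.21 ± 0.12) and stood at -0.45 ± 0.12 at 12 h. MCM8 itself was not called at 3 h with either compound.

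E2F, RB and G1 cyclin genes moved in both directions in Mv4;11. Of 31 tested, 18 were lower and 4 higher after 12 h of PMR-116 and 18 lower and 3 higher after 12 h of CX-5461, beside 22.5% lower and 20.7% higher, and 16.5% and 14.8%, of all genes. E2F1, an activator of MCM genes, fell by 2.19 with PMR-116 and by 1.43 with CX-5461 on the log2 scale, and the cyclin CCNE2 fell by 2.27 with PMR-116. The cell cycle inhibitor CDKN1A was called higher in all 4 Mv4;11 comparisons and MYC lower in all 4. At 3 h and 12 h CDKN1A stood at log2 fold changes of 2.50 and 2.03 with PMR-116, and 3.44 and 2.23 with CX-5461. MYC stood at -2.03 and -1.16 with PMR-116, and at -1.52 and -0.56 with CX-5461. With each compound both genes were further from vehicle at 3 h, when most MCM genes were near it. In KG-1 1 MCM gene was called lower in 1 of 4 comparisons. There CDKN1A was higher with CX-5461 at 12 h (0.96 ± 0.24, adjusted p = 0.0224) and MYC lower with PMR-116 at 3 h (-0.30 ± 0.09, adjusted p = 0.0429). The KG-1 level of CDKN1A was low, with means of 4.47 CPM with CX-5461 at 12 h and 2.29 CPM in vehicle. In Mv4;11 the means for that compound and time were 503 and 108 CPM, without a test between lines. The part of CDKN1A or MYC in the MCM levels was not tested. In KG-1, 30 were tested and 1 or 2 were lower and 3 to 7 higher in each comparison, where 1.18% to 4.74% of all genes were lower and 1.36% to 4.73% higher. Of 22 mitosis genes, 19 were lower at 12 h with PMR-116 and 22 with CX-5461 in Mv4;11, with medians of -0.41 and -0.60. Without the vehicle library that stood apart the PMR-116 counts were again 18 lower and 4 higher for the E2F list and 19 lower for mitosis. At 3 h 9 mitosis genes were lower with PMR-116 and 21 with CX-5461 (13.1% and 6.61% of all genes), a time at which 1 of 9 MCM genes was lower with CX-5461. AURKA was the 1 mitosis gene called higher in Mv4;11 with PMR-116 at 3 h (0.35 ± 0.06, where 11.0% of all genes were higher). In KG-1, CX-5461 lowered 8 of 22 mitosis genes at each time (1.58% and 1.18% of all genes) and no MCM gene. With PMR-116 in KG-1, 0 mitosis genes were called at 3 h (3.71% of all genes were lower and 3.61% higher). At 12 h of PMR-116 there, 1 was lower and 3 were higher (4.74% and 4.73%). The lists were drawn up with earlier results of these data known, and their counts describe them only.

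**Figure D5:**
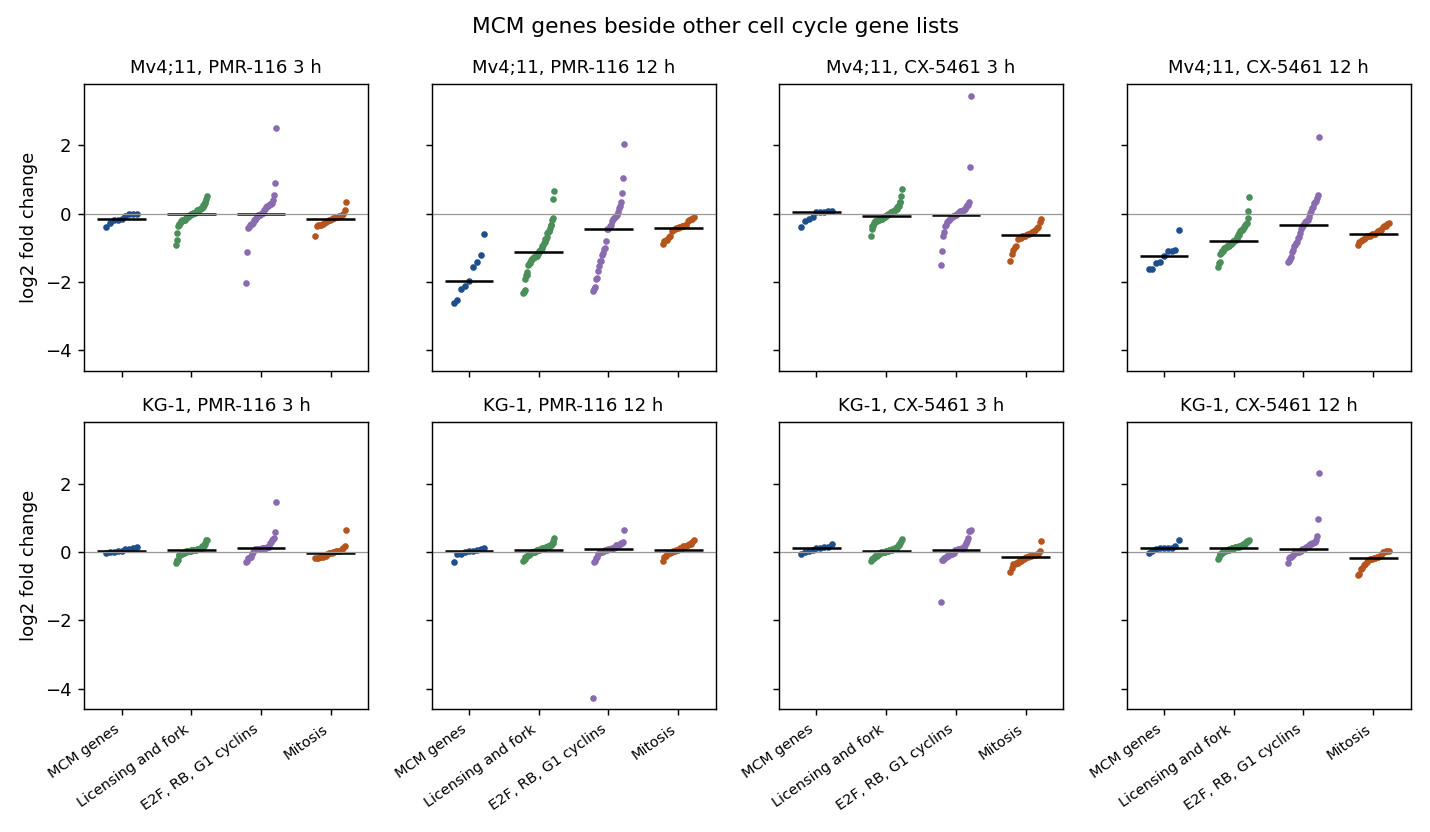
Log2 fold change against vehicle of the tested genes of 4 lists (MCM genes, licensing and fork genes, E2F, RB and G1 genes, mitosis genes) in the 8 comparisons, each point a gene and each line the median of its list. In Mv4;11 at 12 h the medians of the MCM genes are -1.96 for PMR-116 and -1.23 for CX-5461, below those of the other lists, and in KG-1 all medians lie between -0.19 and 0.12.

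The MCM subunits varied as a block across the Mv4;11 libraries and less so in KG-1. Over 24 Mv4;11 libraries the Pearson correlation of log2 CPM between any 2 of the 6 subunits (15 pairs) was 0.971 to 0.992, and over 32 KG-1 libraries it was 0.301 to 0.928. These values include the treatment effect in Mv4;11, and libraries of a group share a treatment, so they are given as a description. The members outside the hexamer followed the subunits' mean with a correlation of 0.988 (MCM10), 0.972 (MCM8) and 0.920 (MCMBP) in Mv4;11. In KG-1 they were at 0.844 (MCM10), 0.534 (MCM8) and 0.797 (MCMBP), and the subunits MCM3 (0.656), MCM6 (0.704) and MCM4 (0.706) followed the mean of the other subunits less closely than MCM7 (0.946). Among the genes most like the subunits' mean in Mv4;11 were UHRF1 (0.997), which maintains DNA methylation, the folate enzyme MTHFD1 (0.997), the fork gene TIMELESS (0.996) and GMNN (0.993), an inhibitor of MCM loading. After 12 h of PMR-116 UHRF1 stood at a log2 fold change of -2.09 ± 0.07 and MTHFD1 at -1.88 ± 0.07. In KG-1 the list was CSNK2B (0.945), RFC2 (0.942), MTHFD1 (0.942), MYBL2 (0.941) and HYPK (0.939), and MTHFD1 was the 1 gene in both.

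Of the 9 MCM genes, 5 have a protein-coding gene on the opposite strand with its start within 2000 bases, and these neighbours were looked at after the members' values were known. PRKDC, the catalytic subunit of a DNA repair kinase, starts 2 bases from MCM4. At 3 h of PMR-116, when MCM4 was called lower, PRKDC stood at 1231, 1471 and 1330 CPM against 1309, 1300 and 1305 CPM in vehicle and overlapped (log2 fold change 0.04 ± 0.07, adjusted p = 0.695). At 12 h it had fallen with MCM4, by 1.22 with PMR-116 and by 0.75 with CX-5461 on the log2 scale, beside log2 fold changes of -2.62 and -1.62 for MCM4 itself. TRMT6, a tRNA methyltransferase subunit whose start lies 94 bases from that of MCM8, showed the other order. It was already lower at 3 h, at 34.1, 30.4 and 25.5 CPM with PMR-116 against 47.8, 54.2 and 46.9 CPM (-0.73 ± 0.10, adjusted p = 6.08e-06), and with CX-5461 (-0.65 ± 0.10), when MCM8 was not called. TPRA1, 44 bases from MCM2, was called higher at 12 h of PMR-116 (0.24 ± 0.07, adjusted p = 0.00415) while MCM2 fell. AP4M1, whose start lies 391 bases from that of MCM7, fell at 12 h by 0.69 with PMR-116 and by 0.30 with CX-5461. Exons of AP4M1 and MCM7 overlap by 392 bases and those of TPRA1 and MCM2 by 45 bases. Reads of these stretches may not be assigned to 1 gene with certainty, so part of the AP4M1 and TPRA1 counts may belong to the MCM gene. SEC23IP, 155 bases from MCMBP, fell by 0.38 with PMR-116 and was not called with CX-5461 (-0.24 ± 0.09, adjusted p = 0.0529). Of all genes in Mv4;11, 22.5% were called lower and 20.7% higher with PMR-116 at 12 h, and 16.5% and 14.8% with CX-5461. At 3 h 13.1% and 6.61% of all genes were called lower. In KG-1 edgeR called none of the 5 neighbours in any of the 4 comparisons. Only 1.18% to 4.74% of all genes were called lower there and 1.36% to 4.73% higher, so few calls among 5 genes would be usual.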

How the data were processed

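Poly(A) RNA-seq libraries of 2 leukaemia lines were analysed from 2 tables of expected counts per gene, 1 per line. The authors' deposited values are estimated counts that need not be whole; the submitters' processing notes name Salmon 1.5.2, DESeq2 and GRCh38.p13 without roles, and the sources used here give neither the strand setting nor the annotation release. Counts were rounded to whole numbers. Columns were matched to samples by name, and 24 columns of no sample were not used. Total counts per library were 28751758 to 41542156 in Mv4;11 and 31010072 to 72707757 in KG-1.

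In each line, all 8 groups were fitted with edgeR 4.0.16 (R 4.3.3; quasi-likelihood test, TMM scaling, filterByExpr with a minimum count of 10 and total of 15), and p-values were Benjamini-Hochberg adjusted over 20495 genes in Mv4;11 and 18618 in KG-1. Differences between lines came from a joint fit of 23759 genes. The threshold for a call was an adjusted p of 0.05. Errors of log2 fold changes are standard errors derived from the F statistic, and intervals are 95% intervals. CPM were computed with TMM-scaled totals, except for the cell type markers, where the totals were not scaled. The fit was tested on simulated counts. The alternatives were DESeq2 1.42.0, library totals, no filter beyond a total above 0, a replicate block, only the groups of a comparison, and each library left out (keeping the dispersion trend and gene set of the fit of all libraries).

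All 9 members were named. Of the licensing, E2F and mitosis lists, at most the 2 largest called falls and 2 largest called rises of a comparison were named, and other genes were chosen after their values were seen. The members and lists were chosen with earlier results of these data known. Motifs were searched in RefSeq promoter windows (GRCh38.p14), and gene positions and overlaps come from GENCODE (GRCh38). In each line the 5 genes with the highest Pearson correlation to the mean log2 CPM (prior count 2) of MCM2 to MCM7 were chosen as most like it, and 1 of them in Mv4;11 is not reported here.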

Additional observations from a re-analysis of the deposited data

Results flagged for a closer look

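Among the 72 KG-1 groups of 4 libraries (9 genes in 8 groups), 5 had a highest or lowest library far from the other 3, beyond Dixon's 95% critical value, where chance gives about 1 in 20 groups. Replicate 2 of CX-5461 at 3 h stood above the next library for MCM2 (766 against 701 CPM), MCM5 (733 against 629 CPM) and MCM7 (930 against 855 CPM). Replicate 1 of the vehicle for CX-5461 at 12 h was high for MCM6 (485 against 432 CPM), and replicate 2 of the vehicle for CX-5461 at 3 h was low for MCM10 (90.5 against 111 CPM).

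The effect at 12 h differed from that at 3 h in Mv4;11 by a test of the difference. With PMR-116 it was further down by these log2 differences: -1.94 for MCM2, -1.41 for MCM3, -2.22 for MCM4, -1.94 for MCM5, -2.36 for MCM6, -1.54 for MCM7, -1.02 for MCM8, -2.15 for MCM10 and -0.32 for MCMBP. With CX-5461 the differences were -1.31 for MCM2, -1.14 for MCM3, -1.21 for MCM4, -1.53 for MCM5, -1.47 for MCM6, -1.16 for MCM7, -1.11 for MCM8 and -1.28 for MCM10.

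The effect also differed between the lines, which cannot be told apart from the batch. With PMR-116 at 12 h the effect in Mv4;11 minus that in KG-1 was -2.01 for MCM2, -1.49 for MCM3, -2.27 for MCM4, -1.83 for MCM5, -2.49 for MCM6, -1.51 for MCM7, -1.22 for MCM8, -2.21 for MCM10 and -0.528 for MCMBP on the log2 scale. With CX-5461 at 12 h it was -1.41 for MCM2, -1.24 for MCM3, -1.55 for MCM4, -1.51 for MCM5, -1.71 for MCM6, -1.18 for MCM7, -1.16 for MCM8, -1.55 for MCM10 and -0.545 for MCMBP. At 3 h MCM4 alone differed, by -0.378 with PMR-116 and -0.413 with CX-5461.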

How the results depend on the processing

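In Mv4;11 at 12 h all 9 members were called lower with either compound under each alternative run. No log2 fold change that was called turned its direction. The number of members called moved by over 1.5 times as follows, and the cause was not tested. With DESeq2 it went from 1 to 2 lower in Mv4;11 for CX-5461 at 3 h, from 0 to 2 higher in KG-1 for CX-5461 at 3 h, from 0 to 1 lower for the PMR-116 effect at 12 h minus 3 h in KG-1, and from 1 to 2 lower for the line difference at 3 h with each compound. With library totals it went from 0 to 1 higher in KG-1 for PMR-116 at 12 h and from 1 to 2 lower for the 3 h line difference with CX-5461. Without the filter on low counts 1 member in place of 2 was higher in KG-1 for CX-5461 at 12 h, and with only the groups of the comparison 0 were. For the Mv4;11 vehicles over time, with alternatives chosen after seeing the data, 4 in place of 2 were lower without the filter and 1 in place of 0 was higher with library totals.

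Leaving out 1 library at a time gave 0 to 2 lower in Mv4;11 for CX-5461 at 3 h, 0 to 1 higher in KG-1 for PMR-116 at 12 h, 1 to 3 higher in KG-1 for CX-5461 at 12 h, 0 to 1 lower for the PMR-116 effect over time in KG-1, and 0 to 2 lower for the 3 h line difference with each compound. For the Mv4;11 vehicles over time it gave 1 to 3 lower and 0 to 1 higher. For members against vehicle, 148 of 156 fits without 1 library kept a call and 8 lost it, and of 348 fits of values not called 5 gained a call. Member counts in a library were at least 361 in Mv4;11 and 2033 in KG-1.

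Libraries share replicate numbers across groups, but nothing in the labels pairs them. Correlations of deviations between treated and vehicle libraries of 1 number were -0.0133 to 0.238, and in 0 comparisons did every pair exceed 0.1. Yet 48 of 56 libraries correlated best with their own number, where each had 3 candidates in Mv4;11 and 4 in KG-1. That is a hint of shared structure from the data and not the design, and the main fits leave it out. With a replicate block 2 members were lower in Mv4;11 for CX-5461 at 3 h, and in KG-1 2 were higher for PMR-116 at 3 h, 1 for PMR-116 at 12 h and 4 for CX-5461 at 3 h. The block also gave 1 lower for the compound difference at 12 h and 2 lower for the PMR-116 effect over time in KG-1, and 2 lower for the 3 h line difference with CX-5461.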

Other observations

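Within groups, 1 replicate number was often the highest for many MCM genes. In KG-1 at 12 h, replicate 1 was the highest library in 31 of 36 combinations of gene and group, while at 3 h it was in 4 of 36. In Mv4;11 at 3 h replicate 2 was highest in 26 of 36, and at 12 h replicate 1 in 22 of 36. The genes of a library share its total and scaling, so these combinations are not independent of each other.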
